A study of Mus musculus with 177 samples.

Results

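The lung was compared between newborn mice that had breathed a low-oxygen gas and mice that had not, where both then breathed pure oxygen. All animals were C57BL/6 mice at postnatal day 7. In the hypoxia group, here H100, the inspired oxygen fraction was 0.08 for 120 min, followed by 100% oxygen for 30 min and 150 min in air. The control group, N100, breathed an inspired fraction of 0.21 during the first 120 min and then the same 100% oxygen and air, so the controls carry the oxygen exposure too. Arrays were assigned by their titles, which gave 11 H100 and 10 N100 lung arrays, 21 of the 177 arrays of the series. The other lung groups were H21, H40 and H60 (hypoxia, then 21, 40 or 60% oxygen) and N21 (air throughout). Values are deposited log2 levels, on which a difference of 1 is a doubling. The 62 mice of the design were randomized between groups, each array was taken to stand for its own animal, and p-values measure the spread between these arrays.

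Low oxygen is sensed in cells by prolyl hydroxylases, which mark the alpha subunits of the hypoxia-inducible factors (HIFs) for destruction as long as oxygen is present. When oxygen falls, stabilised HIF binds short DNA motifs and raises genes for glycolysis, blood vessel growth and vasodilation, and these changes decline again after reoxygenation. Asphyxia also releases stress hormones, and glucocorticoids act on the newborn lung through their own receptor. In whole lung tissue a lower value can mean fewer cells of a type or less RNA per cell, and the arrays cannot tell these apart.

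The arrays held lung tissue by their markers. The mean level of 12 genes of type 2 alveolar cells, the surfactant producers, ran from 11.35 to 11.67 in N100 and from 11.40 to 11.72 in H100. Sex was read from the levels of Xist and Y-linked genes, by which 6 of the 11 H100 arrays and 6 of the 10 N100 arrays were female. By order in the deposited table, 6 H100 and 8 N100 arrays came among the first 113 columns, and 5 H100 and 2 N100 arrays came later. The labels do not say what this order stands for, but 56.5% of 19937 genes differed between earlier and later lung arrays, and the order was therefore a term wherever both parts of the table entered a fit, except where its omission is named. A lung array labelled H40 replicate 10 has a brain profile and was left out.

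One H100 array stood apart from its group. To place each array without using it, 33 genes were taken that differed between the other hypoxia groups (H21, H40 and H60 together) and N21, 30 of them higher and 3 lower, and an array's score was the mean of the former minus the mean of the latter. The N100 arrays scored from -0.95 to -0.21 with a median of -0.52. The array labelled H100 replicate 6 scored -1.01, below every N100 array. The other 10 H100 arrays scored from 0.29 to 0.71, all above every N100 array. For 25 of the 26 genes that passed in this comparison, replicate 6 was nearer the N100 mean than the H100 mean of the earlier arrays. The exception was Wif1. The H100 mean was taken without replicate 6. The 26 genes were called in a fit that held these arrays, so this count is no independent evidence. Among the N21 arrays, replicate 2 scored 0.44 and the others from -0.84 to -0.53, and among the hypoxia arrays used for the choice H40 replicate 2 scored -0.58 and H60 replicate 1 -0.69. Counts of called genes and the changes of the genes that carry the results are therefore given with the array labelled H100 replicate 6 and again without it, and those of the air pair also without N21 replicate 2. Both arrays were picked out by their expression, so what is gained by leaving them out is no independent evidence.

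**Figure D1:**
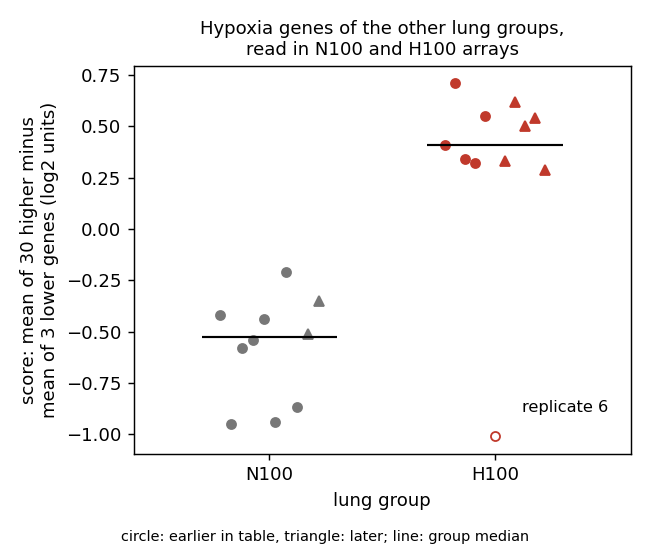
Score of each lung array for 33 genes that differed with hypoxia in the groups given 21, 40 or 60% oxygen, in log2 units, with N100 on the left and H100 on the right. Each point is an array, the line is the group median, and the open circle is the array labelled H100 replicate 6. The N100 arrays lie between -0.95 and -0.21, 10 H100 arrays between 0.29 and 0.71, and replicate 6 at -1.01.

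Against N100, 26 of 19937 genes (0.13%) passed an adjusted p of 0.05 in H100, 20 of them higher (0.1%) and 6 lower (0.0301%) (limma, Benjamini-Hochberg adjustment). The median change over all genes was 0.00 on the log2 scale. The genes that rose included the lymphatic growth factor Vegfc, the vasodilator peptide Adm, the neurotrophin receptor Ntrk2, the enzymes Dpep1, Fmo2, Xdh, Sult1a1 and Glul, and the clock repressors Cry1 and Cry2. The genes that fell were Stc1, Tmem132c, Ldb2, Nr1d2, Wif1 and Nup210. Without replicate 6, 89 genes passed (0.446%), 54 higher (0.271%) and 35 lower (0.176%), and these held all 26, each with a larger change in size. Leaving out H100 replicate 1 or replicate 2 left 17 and 12 called genes. The earlier arrays alone gave 0 called genes (933 at an unadjusted p under 0.05) and the later arrays alone 0 (831). All 26 genes had the same direction in both, with a median change in that direction of 0.55 and 0.56. The 26 were called in a fit that held both parts, so this agreement is no independent evidence. The changes of 4 genes, Adm, Fhl5, Peg3 and Stc1, differed by over 1.5 times in size between the earlier and the later arrays. The earlier arrays without replicate 6 gave 25 called genes (0.125%).

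Growth factors, peptides and proteins of the vessel wall made up the first group. Vegfc encodes a ligand of the receptor Flt4 and drives the growth of lymphatic vessels. Its log2 level ran from 7.22 to 7.79 in N100, with a median of 7.59, and from 7.57 to 8.60 in H100, with a median of 8.29. Except for replicate 6, at 7.57, every H100 array lay above every N100 array. The change was 0.67 ± 0.09 (SE of the fit; 1.59-fold, adjusted p = 1.9e-05), and 0.74 ± 0.09 without replicate 6 (adjusted p = 3.9e-07). Among the 10 measured VEGF ligands and receptors Vegfc was the single member called, and the list's median change was -0.04. Vegfa, the main HIF-driven angiogenic factor, changed by 0.04 ± 0.09, and Flt4 by -0.20 ± 0.08 (adjusted p = 0.66). Pgf, the placental growth factor, changed by 0.45 ± 0.13 (adjusted p = 0.19) and passed without replicate 6, at 0.56 ± 0.12 (adjusted p = 0.0081).

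Adm encodes adrenomedullin, a vasodilator peptide and a classical HIF target. In N100 it ran from 7.19 to 8.50 with a median of 7.56, and in H100 from 7.31 to 8.79 with a median of 8.47. The 2 groups overlapped, because N100 replicate 7 lay at 8.50 and H100 replicate 6 at 7.31, and 5 H100 arrays were above all N100 arrays. The change was 0.79 ± 0.15 (1.73-fold, adjusted p = 0.0098), and 0.91 ± 0.14 without replicate 6. It was 0.61 ± 0.19 in the earlier arrays and 1.13 ± 0.24 in the later ones. None of the other 6 members of the adrenomedullin list passed. They include Calcrl, the receptor (0.10 ± 0.08), and Ramp3, an accessory protein of that receptor (0.34 ± 0.16, adjusted p = 0.83). Jam2, a junction protein of endothelium, rose from a median of 8.64 to 9.22, by 0.46 ± 0.10 (adjusted p = 0.016), with 10 of 11 H100 arrays above all N100 arrays. It was the single member called among 14 adhesion and junction genes, whose median change was 0.05. Aqp1, the water channel of lung capillaries and red cells, rose by 0.42 ± 0.09 (adjusted p = 0.032). Tinagl1, a secreted matrix protein, ran from 8.72 to 9.78 in N100 and from 9.03 to 10.87 in H100, and rose by 0.75 ± 0.15 (adjusted p = 0.016). In the same lungs none of 15 markers of capillary and other blood endothelium passed, with a median change of 0.01, and none of 7 lymphatic markers, with a median of -0.05.

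Enzymes of small molecules formed the second group. Dpep1, a membrane dipeptidase that cleaves leukotriene D, was measured from 6.72 to 8.26 in N100 (median 7.45) and from 6.67 to 9.41 in H100 (median 8.78). Replicate 6 held the lowest value of all 21 arrays, and the other 10 H100 arrays lay above every N100 array. The change was 1.14 ± 0.21 (2.20-fold, adjusted p = 0.0072), and 1.34 ± 0.19 without replicate 6. Fmo2, the main flavin monooxygenase of the lung, went from a median of 10.48 in N100 (10.11 to 11.06) to 11.58 in H100 (10.60 to 11.84), a change of 0.97 ± 0.19 (1.96-fold, adjusted p = 0.014), or 1.08 ± 0.19 without replicate 6. Of the H100 arrays 9 exceeded all N100 arrays. Sult1a1, a sulfotransferase of phenols, rose by 0.71 ± 0.15 (adjusted p = 0.016). These 3 genes were called higher among 13 lung monooxygenases and small-molecule enzymes, against 0.1% of all genes, and none was called lower. The list was drawn up with earlier results of these data known, so its count is no independent evidence. Another member, the methyltransferase Inmt, changed by 0.77 ± 0.26 (adjusted p = 0.42).

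Xdh encodes xanthine dehydrogenase and oxidase, which performs late steps of purine breakdown and in its oxidase form yields superoxide. Its level ran from 7.53 to 8.26 in N100 (median 7.94) and from 7.82 to 9.06 in H100 (median 8.78). Of the 11 H100 arrays 9 lay above all N100 arrays. It rose by 0.83 ± 0.16 (1.78-fold, adjusted p = 0.014), or 0.94 ± 0.16 without replicate 6, and was the single member called of 8 genes of xanthine oxidoreductase and the adenosine pathway, where the ectonucleotidase Nt5e changed by 0.21 ± 0.12. Glul, glutamine synthetase, ran from 10.66 to 11.11 in N100 and from 11.10 to 11.59 in H100, with medians of 11 and 11.55. The lowest H100 value was again that of replicate 6, and the other 10 lay above every N100 array. The change was 0.52 ± 0.09 (adjusted p = 0.0032), or 0.57 ± 0.09 without replicate 6, and a second probe set of Glul gave 0.49 ± 0.10. No other of 12 genes of glutamine and glutamate handling passed. Selenbp1, a methanethiol oxidase, rose by 0.61 ± 0.13 (adjusted p = 0.016). Its close paralog Selenbp2, whose probes may share signal with it, changed by 0.49 ± 0.11 (adjusted p = 0.054) and passed without replicate 6 (0.55 ± 0.11, adjusted p = 0.0052).

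Receptors, adaptors and other genes followed. Ntrk2, which binds brain-derived neurotrophic factor (Bdnf), ran from 5.68 to 6.43 in N100 (median 6.16) and from 6.42 to 7.34 in H100 (median 6.80). Apart from replicate 6, at 6.42, the H100 arrays lay at 6.73 or above. It rose by 0.82 ± 0.12 (1.77-fold, adjusted p = 6.2e-05), or 0.89 ± 0.12 without replicate 6, while Bdnf changed by 0.00 ± 0.07. Fhl5, a LIM-only co-activator known from smooth muscle, had the largest change of the 26 in the fit of all arrays, at 1.34 ± 0.29 (2.52-fold, adjusted p = 0.022), or 1.53 ± 0.28 without replicate 6. In the later arrays alone it changed by 0.92 ± 0.30, less than Dpep1, Fmo2 and Adm there, and in the earlier ones by 1.48 ± 0.42. It also had a wide spread: N100 ran from 4.96 to 6.69 (median 5.61), H100 from 5.32 to 7.91 (median 7.04), and 8 H100 arrays lay above all N100 arrays. Of 12 markers of smooth muscle and pericytes none passed, and their median change was 0.10. Without replicate 6 Tagln, an actin-binding protein, passed. Wfdc1, a secreted protease-inhibitor-like protein, rose by 0.70 ± 0.16 (adjusted p = 0.047), and Peg3, an imprinted zinc finger gene, by 0.69 ± 0.15 (adjusted p = 0.027). Peg3 stood at 8.55 in N100 replicate 10 and from 9.30 to 9.77 in the other 9, and its change was 0.61 in the earlier and 0.92 in the later arrays. Beyond the size ranking, and named after their values were seen, Ripk3 (a kinase of necroptosis) rose by 0.38 ± 0.08 (adjusted p = 0.016), Ctsh (a lysosomal protease that trims surfactant protein B) by 0.42 ± 0.10 (adjusted p = 0.04) and Igf2bp1 (an RNA-binding protein) by 0.35 ± 0.07 (adjusted p = 0.017). A second, dim probe set of Igf2bp1 gave 0.07 ± 0.13.

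Of the 6 genes that fell, Stc1 had the largest change in the fit of all arrays. It encodes stanniocalcin, a secreted glycoprotein of calcium and phosphate handling. The N100 arrays ran from 6.94 to 8.20 (median 7.55), and the H100 arrays other than replicate 6 from 6.56 to 7.04. Replicate 6 stood at 8.01. The change was -0.56 ± 0.12 (adjusted p = 0.016), or -0.68 ± 0.11 without replicate 6. It was -0.62 ± 0.16 in the earlier arrays and -0.32 ± 0.14 in the later ones, the smallest of the 6 there. The paralog Stc2 changed by 0.08 ± 0.06. Ldb2, an adaptor that joins LIM domain transcription factors and is abundant in lung endothelium, went from a median of 10.00 (9.75 to 10.14) to 9.51 (9.41 to 10.02), a change of -0.40 ± 0.08 (adjusted p = 0.016), or -0.45 ± 0.08 without replicate 6. Tmem132c, a transmembrane protein, changed by -0.42 ± 0.09 (adjusted p = 0.017), and every H100 array except replicate 6 lay below 8.67, the lowest N100 value. Wif1, a secreted inhibitor of Wnt ligands, changed by -0.37 ± 0.09 (adjusted p = 0.044), and the nuclear pore gene Nup210 by -0.36 ± 0.08 (adjusted p = 0.047). Of 20 Ldb and LIM domain partners 1 rose (Fhl5) and 1 fell (Ldb2), against 0.1% and 0.0301% of all genes. Ldb1 changed by 0.02 ± 0.08. Next by p, and not passing, came Cdca7 (-0.62 ± 0.15, adjusted p = 0.054), the mesodermal transcription factor Meox1 (-0.36 ± 0.09, adjusted p = 0.072), Arnt2, a partner subunit of HIF-type factors (-0.24 ± 0.06, adjusted p = 0.072), and Peg10 (-0.38 ± 0.09, adjusted p = 0.079).

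**Figure D2:**
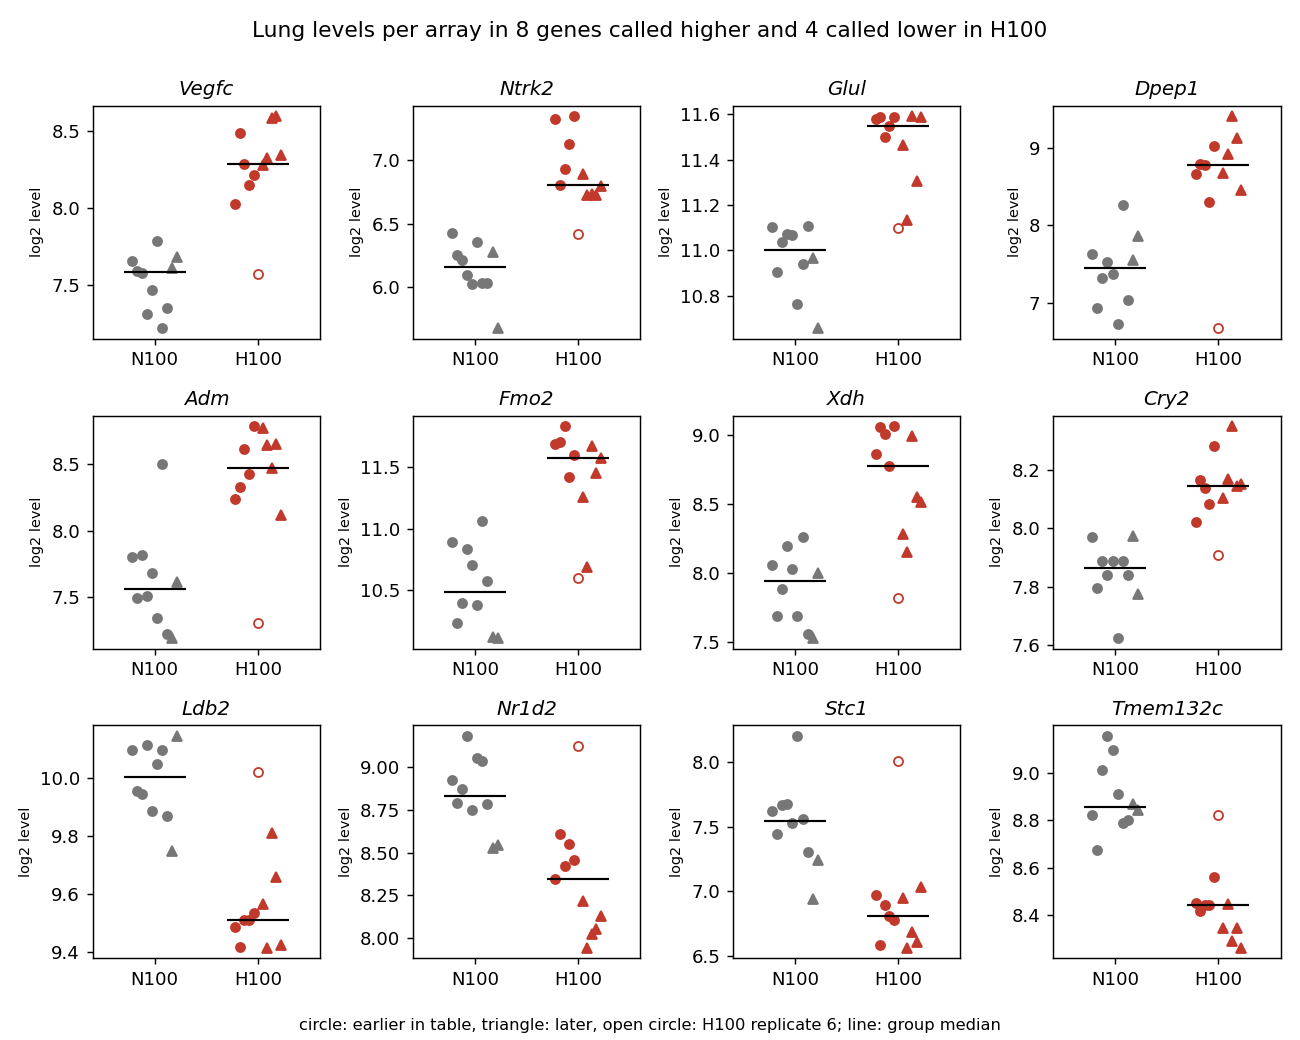
Deposited log2 level of 12 called genes in each N100 (grey) and H100 (red) lung array. Circles are arrays among the first 113 columns of the deposited table, triangles later ones, the open circle is H100 replicate 6 and lines are medians. Replicate 6 lies within the N100 range in 11 of the 12 panels, as for Vegfc at 7.57 and Stc1 at 8.01, and below it for Dpep1 at 6.67.

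The circadian clock is a loop in which the activators Clock and Arntl (Bmal) switch on the period and cryptochrome genes and the repressors Nr1d1 and Nr1d2 (the Rev-erbs). Of 16 clock genes measured, Cry1 and Cry2 rose and Nr1d2 fell, against 0.1% of all genes called higher and 0.0301% lower. The list was drawn up with earlier results of these data known, so its count is no independent evidence. Cry1 ran from 7.46 to 7.91 in N100 and from 7.29 to 8.31 in H100, with medians of 7.67 and 8.08. Replicate 6 was the lowest of all 21 arrays and the other 10 H100 arrays, at 8.04 or above, exceeded all N100 arrays. The change was 0.35 ± 0.08 (adjusted p = 0.04), or 0.43 ± 0.07 without replicate 6. Cry2 changed by 0.28 ± 0.06 (adjusted p = 0.016), again with 10 H100 arrays above all N100 arrays. Nr1d2 went from a median of 8.83 (8.53 to 9.18) to 8.35 (7.94 to 9.12), by -0.39 ± 0.08 (adjusted p = 0.016), or -0.46 ± 0.08 without replicate 6. Among members that did not pass, the values were -0.46 ± 0.13 for Nr1d1 (adjusted p = 0.19), -0.34 ± 0.11 for the repressor Bhlhe40 (adjusted p = 0.35) and 0.27 ± 0.09 for Per2 (adjusted p = 0.45). The list's median change was 0.01, with 8 members above and 8 below 0. The time of day of collection is not given in the sources used here.

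Glucocorticoids bind a receptor that acts on target genes, and a list of 24 glucocorticoid-induced genes was measured. Of these 3 passed, all higher (Fmo2, Sult1a1 and Glul, which other lists here also hold), against 0.1% of all genes. Of the 24 members 22 were above 0, against 50.1% of all genes, and the median change was 0.33 against 0.00 over all genes. The list was drawn up with earlier results of these data known, so these counts are no independent evidence. The classical targets, named for their role and not by their statistic, were Tsc22d3 (0.45 ± 0.17, adjusted p = 0.55), Fkbp5 (0.56 ± 0.21, adjusted p = 0.56) and Zbtb16 (1.10 ± 0.47, adjusted p = 0.72), which did not pass. Sgk1, a kinase that promotes sodium uptake, changed by 0.37 ± 0.09 (adjusted p = 0.083). Without replicate 6, Sgk1 (0.41 ± 0.09, adjusted p = 0.012) and Gadd45g (0.48 ± 0.09, adjusted p = 0.0017) passed too, and the median was 0.38. Pdk4 and Tat were the 2 members below 0, at -0.16 ± 0.38 and -0.08 ± 0.09.

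**Figure D3:**
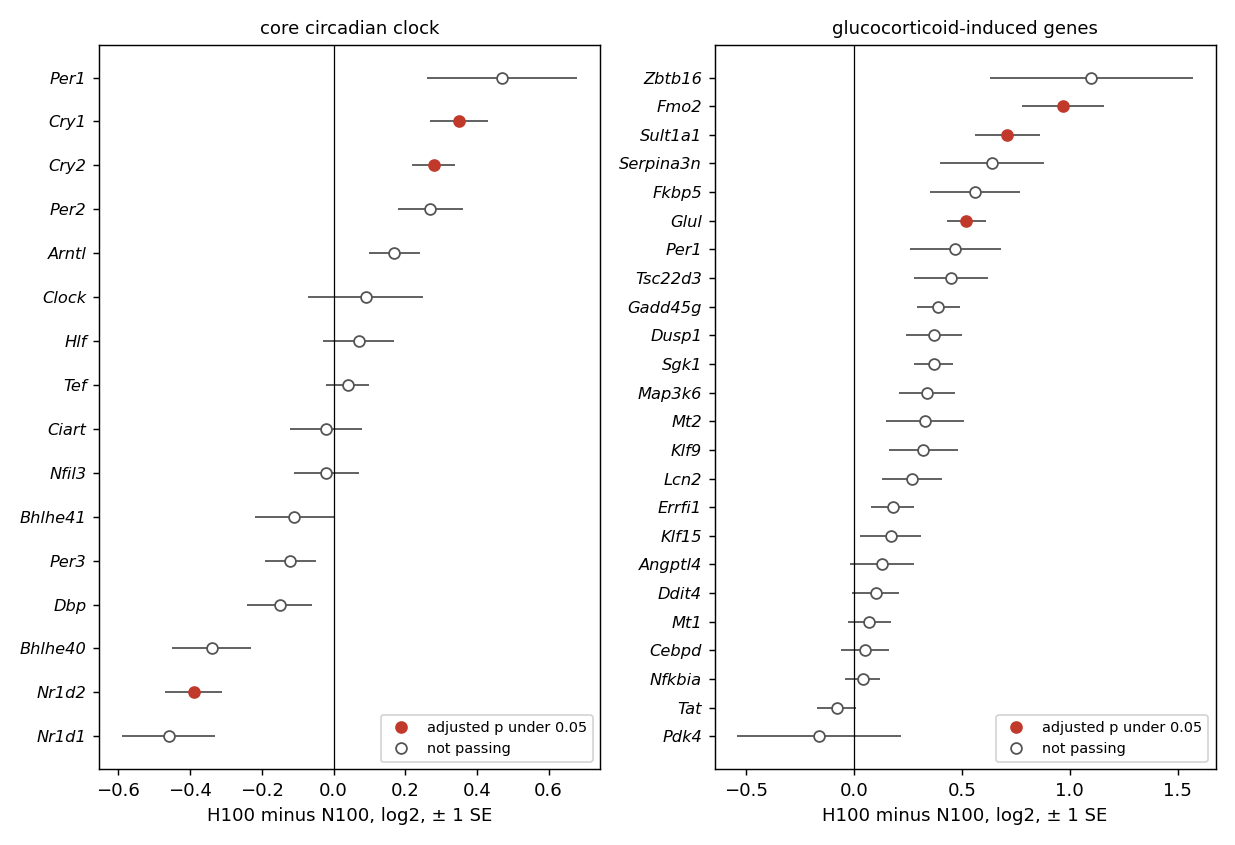
Log2 change from N100 to H100 (± 1 SE of the fit) of 16 core clock genes and 24 glucocorticoid-induced genes, sorted by size. Filled points passed an adjusted p of 0.05 over all genes. The clock members lie on both sides of 0, while 22 of the 24 glucocorticoid-induced genes lie above it.

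The HIF targets outside glycolysis numbered 31 measured genes, of which Adm alone was called. Their median change was 0.06, and 25 were above 0. At this time point the value was 0.31 ± 0.11 for the endothelin gene Edn1 (adjusted p = 0.47), 0.37 ± 0.13 for the collagen crosslinking enzyme Lox (adjusted p = 0.47) and 0.27 ± 0.10 for the glucose carrier Slc2a3 (adjusted p = 0.57). Of 10 HIF subunits and hydroxylases none passed. Hif3a, a subunit that can restrain the others, changed by 0.76 ± 0.22 (adjusted p = 0.23), and Hif1a by -0.08 ± 0.08. Without replicate 6 Arnt2 passed, at -0.27 ± 0.06 (adjusted p = 0.014). Of 14 glycolysis genes none passed, and 1 did without replicate 6, with medians of 0.10 and 0.13. The replication list, 28 genes that copy DNA, gave 0 called genes with 25 below 0 and a median of -0.14, and the helicase subunits Mcm7 (-0.21 ± 0.08, adjusted p = 0.55) and Mcm5 (-0.26 ± 0.10, adjusted p = 0.57) had the smallest p. Of 19 mitosis genes 17 were above 0, with a median of 0.06 and none called.

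Promoters were searched for the core of the HIF motif, ACGTG or GCGTG on either strand. The window was 250 bases before to 50 after the start in RefSeq (GRCm38.p6). Of the 26 called genes 19 had an entry, and 14 of these (73.7%) held the core, against 46.7% of 27025 genes. The 27025 are all genes with an entry, not only those tested here, and the shares were not tested against each other. The 14 include Nr1d2, Nup210 and Wif1, which fell. The E-box CACGTG, through which Clock and Arntl act and which overlaps the core, was held by 3 of the 19 (15.8%; Cry1, Ripk3 and Wif1) against 8.09%. The full palindromic glucocorticoid response element was in none of the 19 and in 0.0111% of all genes, and a looser form of it with free bases in each arm in 1, Tinagl1 (5.26%), against 0.537%. A match of letters describes the window and shows no binding. The next lines give the 250 bases before the start of Adm (chr7:110627407-110627656, plus strand), Cry1 (chr10:85185055-85185304, minus strand), Cry2 (chr2:92434070-92434319, minus strand) and Vegfc (chr8:54077282-54077531, plus strand), 5′ to 3′ along the gene. They are the HIF target and the cryptochromes that rose, and, for contrast, the gene with the smallest p, which has no core. Capitals mark the cores, which in the minus orientation read CACGT or CACGC.
Adm: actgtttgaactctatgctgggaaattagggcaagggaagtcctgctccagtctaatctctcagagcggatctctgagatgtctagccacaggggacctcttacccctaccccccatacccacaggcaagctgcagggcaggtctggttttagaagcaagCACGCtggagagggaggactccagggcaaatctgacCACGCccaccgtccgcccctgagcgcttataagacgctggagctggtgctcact
Cry1: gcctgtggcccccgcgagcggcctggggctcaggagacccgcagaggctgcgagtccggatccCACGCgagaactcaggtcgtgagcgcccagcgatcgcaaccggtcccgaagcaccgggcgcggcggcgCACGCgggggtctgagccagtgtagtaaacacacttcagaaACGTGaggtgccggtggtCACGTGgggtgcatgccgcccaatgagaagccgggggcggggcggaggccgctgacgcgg
Cry2: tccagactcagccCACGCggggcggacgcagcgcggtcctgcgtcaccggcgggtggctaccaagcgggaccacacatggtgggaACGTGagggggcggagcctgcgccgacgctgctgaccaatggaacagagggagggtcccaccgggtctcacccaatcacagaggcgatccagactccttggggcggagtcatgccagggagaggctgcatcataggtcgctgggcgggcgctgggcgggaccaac
Vegfc: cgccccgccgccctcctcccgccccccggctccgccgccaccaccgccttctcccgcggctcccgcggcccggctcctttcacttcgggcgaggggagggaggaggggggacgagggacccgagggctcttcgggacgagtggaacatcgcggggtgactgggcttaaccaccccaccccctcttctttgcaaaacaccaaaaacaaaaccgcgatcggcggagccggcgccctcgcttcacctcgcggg
The Adm window holds 2 cores, the nearer at 54 to 50 bases before the start. The Cry1 window holds 5, of which the pair at 60 to 55 bases before the start forms an E-box. Cry2 holds 2 and Vegfc 0.

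Without the array labelled H100 replicate 6, 63 further genes passed, 34 higher and 29 lower. Among the higher were Scnn1a, a subunit of the epithelial sodium channel that clears fluid from the airspaces (0.55 ± 0.12, adjusted p = 0.014), and Hsd11b1, which regenerates active glucocorticoid (0.70 ± 0.13, adjusted p = 0.001). Adamtsl2, a matrix protein bound to microfibrils, changed by 0.94 ± 0.19 (adjusted p = 0.0037), G0s2, an inhibitor of lipolysis, by 0.66 ± 0.13 (adjusted p = 0.0033), and Lipg, the endothelial lipase, by 0.55 ± 0.12 (adjusted p = 0.0084). The remaining higher genes under the naming rule were Gdpd2, Ndrg2, Pgf, Selenbp2, Cdo1, Tgm2 and the neutrophil collagenase Mmp8 (1.03 ± 0.25, adjusted p = 0.033). For Adamtsl2 the N100 arrays ran from 7.78 to 8.59, replicate 6 stood at 7.79 and the other 10 H100 arrays ran from 8.41 to 9.47, with 9 above all N100 arrays. With replicate 6 the change of Adamtsl2 was 0.82 ± 0.19 (adjusted p = 0.055).

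The lower genes gained without replicate 6 included 3 genes of axon guidance. The netrin receptor Unc5c changed by -0.70 ± 0.16 (adjusted p = 0.017), Slitrk6 by -0.93 ± 0.22 (adjusted p = 0.021) and the semaphorin receptor Plxnd1 by -0.39 ± 0.09 (adjusted p = 0.026). They are the 3 members called lower among 17 axon guidance genes, beside 2 higher (Ntrk2 and Ntn4). Over all genes 0.176% were called lower and 0.271% higher without replicate 6. The list was drawn up with earlier results of these data known, so these counts are no independent evidence. The hedgehog transcription factor Gli3 changed by -0.46 ± 0.11 (adjusted p = 0.022), the metalloprotease Adam12 by -0.62 ± 0.12 (adjusted p = 0.0037), the cell-cycle cyclin Ccnd1 by -0.49 ± 0.11 (adjusted p = 0.026) and Myc by -0.42 ± 0.10 (adjusted p = 0.033). For Slitrk6 the N100 arrays ran from 7 to 8.10 and the H100 arrays other than replicate 6 from 6.17 to 7.47, with 8 of them below all N100 arrays. Replicate 6 was at 7.97. Cdca7 (-0.68 ± 0.15, adjusted p = 0.01), Shisa3, Amph, Plcxd3, the actin bundler Fscn1 and Ctnnd2 complete the lower genes under the rule.

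Markers of other cells moved beside these genes without passing. Of 14 neutrophil markers 11 were above 0, with a median change of 0.28, and none passed with replicate 6. Their mean level ran from 6.19 to 7.13 in N100 and from 6.45 to 7.89 in H100, with the highest value in H100 replicate 1. In the earlier arrays the group median of that mean was 6.97 in H100 and 6.48 in N100, and in the later ones 6.63 and 6.79. Mmp8, the neutrophil collagenase, was at 1.29 ± 0.31 in the earlier and 0.30 ± 0.36 in the later arrays, and S100a8 at 0.63 ± 0.24 over all (adjusted p = 0.57). All 12 brown fat markers were below 0, with a median of -0.55 and wide errors, such as -0.76 ± 0.41 for Adipoq, and their mean ran from 6.07 to 7.81 in N100 and from 5.74 to 7.50 in H100. All 12 skeletal muscle markers were below 0 as well (median -0.37). The part of these tissues in the results was not tested. Type 1 and type 2 alveolar markers had median changes of 0.09 and 0.03. Without replicate 6 the medians were 0.28 for neutrophils, -0.55 for brown fat and -0.32 for skeletal muscle.

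The same hypoxia was followed by air in H21, with N21 as its control, and this pair shares no array with H100 and N100. In the air pair 32 genes passed (0.161%), 26 higher (0.13%) and 6 lower (0.0301%), and 122 (0.612%) without N21 replicate 2. Of the 26 genes of the 100% oxygen pair, all 26 had the same direction in air. Each had an unadjusted p under 0.05 there, against 7.02% of all genes in either direction. Both pairs were read from the same fit, with a shared estimate of each gene's spread, so these p-values are not independent of the choice of genes. Of the 26 genes 12 passed in both, which is 46.2% of the 26 and 37.5% of the 32. Without N21 replicate 2, 19 of the 26 passed in air. The median change in the direction of the call was 0.54 under 100% oxygen and 0.48 in air, or 0.54 in air without N21 replicate 2. The 26 were selected in the 100% oxygen pair, which favours larger values there.

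Side by side, Vegfc changed by 0.67 ± 0.09 under 100% oxygen and 0.58 ± 0.10 in air, Ntrk2 by 0.82 ± 0.12 and 0.67 ± 0.13, and Fhl5 by 1.34 ± 0.29 and 1.52 ± 0.31. The difference between the pairs was 0.10 ± 0.14 for Vegfc, 0.16 ± 0.18 for Ntrk2 and -0.18 ± 0.42 for Fhl5. Without H100 replicate 6 and N21 replicate 2 it was 0.10 ± 0.12, 0.13 ± 0.17 and -0.23 ± 0.38. The air values without N21 replicate 2 were 0.64 ± 0.10 for Vegfc, 0.75 ± 0.13 for Ntrk2 and 1.76 ± 0.30 for Fhl5. Stc1 changed by -0.56 ± 0.12 and -0.44 ± 0.13, and Ldb2 by -0.40 ± 0.08 and -0.49 ± 0.09. Nup210 had the smallest p for a difference among the 26, with changes of -0.36 ± 0.08 and -0.18 ± 0.09 and a difference of -0.18 ± 0.12 (unadjusted p = 0.14). Without H100 replicate 6 that difference was -0.25 ± 0.11 (unadjusted p = 0.027, adjusted p = 1), and without N21 replicate 2 as well -0.22 ± 0.11 (unadjusted p = 0.054). Over all 19937 genes the test of the difference called 0 genes (419 at an unadjusted p under 0.05), and 0 again without H100 replicate 6 and N21 replicate 2 (502). Its 3 smallest p values belonged to Loxl4 (-0.39 ± 0.11, unadjusted p = 0.0011), Cyp3a16 (-0.41 ± 0.12, unadjusted p = 0.0015) and Khnyn (0.34 ± 0.10, unadjusted p = 0.002). A difference that does not pass does not show equal responses.

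**Figure D4:**
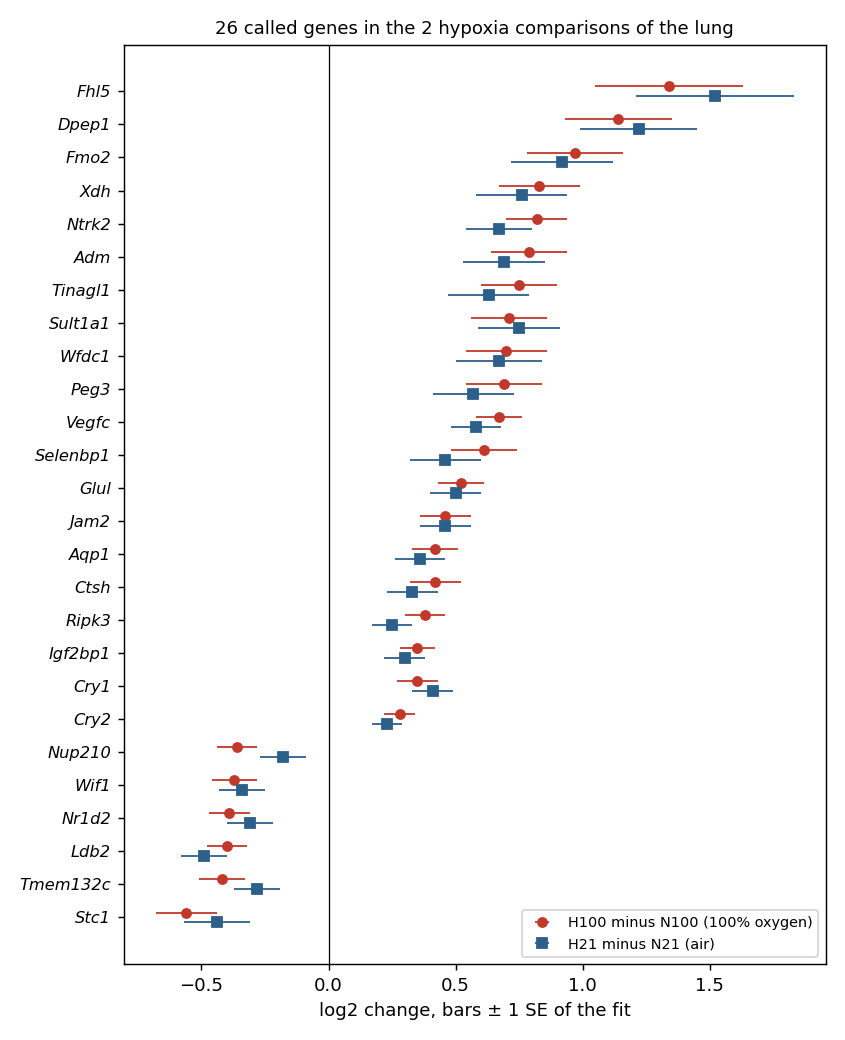
Log2 change (± 1 SE of the fit) of the 26 called genes in H100 against N100 (red circles) and in H21 against N21 (blue squares). All 26 lie on the same side of 0 in both pairs, and Fhl5 has the widest errors, with 1.34 ± 0.29 and 1.52 ± 0.31.

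Over the 6 lung groups the genes with the smallest p showed the same grouping by hypoxia. They were chosen by H100 against N100, so the difference between these 2 groups was given by the choice. Vegfc averaged 7.71 ± 0.18 (SD, n = 9) in N21 and 7.52 ± 0.18 (n = 10) in N100, against 8.26 ± 0.19 (n = 9) in H21, 8.13 ± 0.26 (n = 9) in H40, 8.18 ± 0.30 (n = 12) in H60 and 8.26 ± 0.29 (n = 11) in H100. The 4 hypoxia means lay within 1 SD of each other, and the control means differed by about 1 SD. Adm averaged 7.51 ± 0.30 and 7.61 ± 0.38 in N21 and N100, and from 8.20 ± 0.29 in H21 to 8.39 ± 0.42 in H100. Dpep1 averaged 7.50 ± 0.51 and 7.42 ± 0.46 in the controls, and from 8.50 ± 0.50 in H60 to 8.69 ± 0.25 in H21. These means include the arrays that stood apart and are not adjusted for table order.

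**Figure D5:**
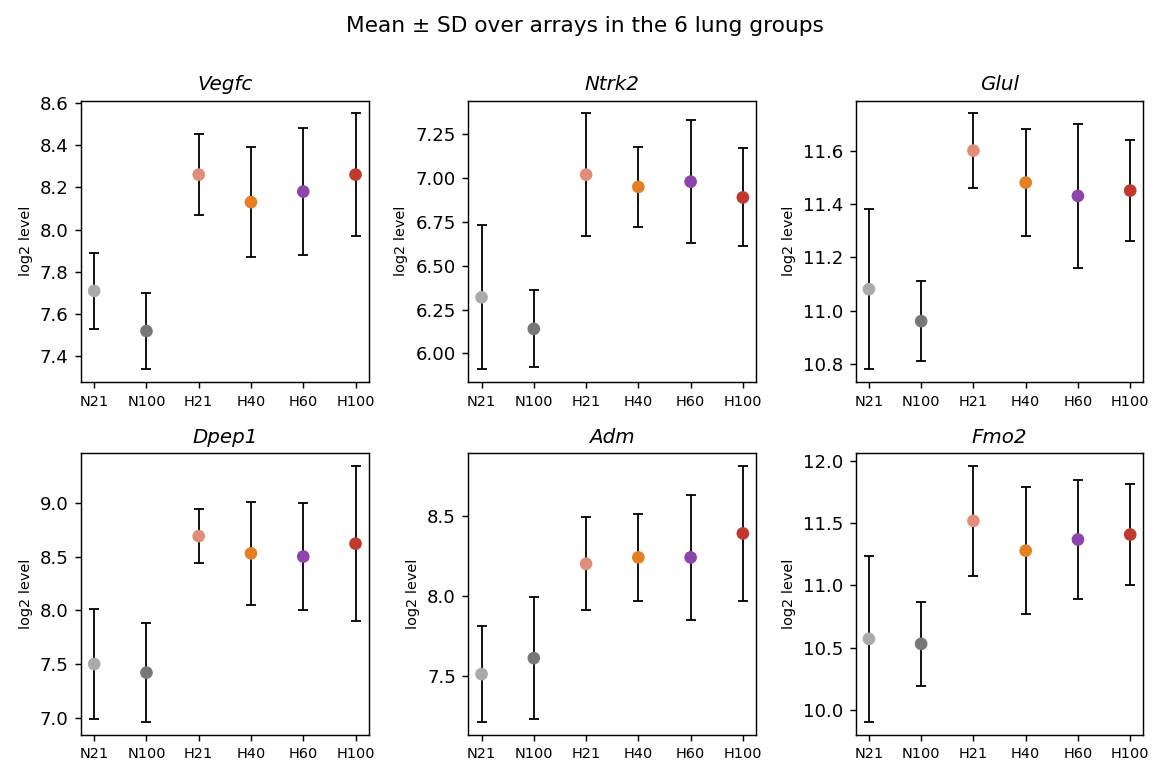
Mean log2 level (± SD over arrays) in the lung groups N21, N100, H21, H40, H60 and H100. The 6 genes were chosen by the smallest p for H100 against N100. In each panel the 4 hypoxia means lie above both control means. For Vegfc they range from 8.13 to 8.26 against 7.52 and 7.71.

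The same contrast was read in brain and eye of these groups. In brain 3 genes passed in H100 against N100 (0.015%; 549 of 19937 at an unadjusted p under 0.05), and in eye 0 did (1525 of 19937). Of the 26 lung genes 19 had the lung direction in brain, 3 of them at an unadjusted p under 0.05. The eye gave 20 and 5, while Jam2 (-0.16 ± 0.08, unadjusted p = 0.041) and Igf2bp1 (-0.24 ± 0.10, unadjusted p = 0.024) went the other way there. Their median change in the lung direction was 0.08 in each tissue. The 3 in brain were Sult1a1 (0.36 ± 0.10, unadjusted p = 0.00067), Aqp1 (0.39 ± 0.12, unadjusted p = 0.0022) and Adm (0.24 ± 0.10, unadjusted p = 0.023). Fhl5 changed by -0.03 in brain. The 5 in eye were Selenbp1 (0.50 ± 0.13, unadjusted p = 0.00034), Fmo2, Xdh, Adm and Sult1a1. In eye Adm changed by 0.27 ± 0.13 and Sult1a1 by 0.32 ± 0.14. None of these genes passed after adjustment in brain or eye. The difference between tissues was not tested, since the values look as if the tissues had been normalized separately.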

How the data were processed

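RNA was measured on Affymetrix Mouse Gene 1.0 ST arrays. Biotin-labelled product was made from 10 ng of RNA, per the labels' protocols. These describe blood reagents (Ficoll, a blood RNA kit) although the samples are organs. The authors deposited log2 values after RMA, which corrects background, equalizes arrays and summarizes probes, per the submitters' processing notes. The number of arrays limits the precision.

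Of 34760 probe sets, 21640 had 1 gene symbol, 1321 several and 11799 none. RefSeq identifiers (21553 found) gave current symbols, and the brightest probe set stood for a gene, leaving 19937 genes. All 60 lung arrays of 6 groups were fitted with limma 3.58.1 in R 4.3.3 (lmFit and eBayes, two-sided, group and table order as terms, 53 residual degrees of freedom). Called means a Benjamini-Hochberg adjusted p under 0.05 over all genes. Errors are standard errors of the fit. The scripts were tested on simulated data.

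Members, the 46 gene lists (611 of 654 entries measured) and the repeat without replicate 6 were chosen with earlier results of these data known. The text names up to 15 called genes per direction by size, the next by p up to 10, up to 12 per direction gained without replicate 6, and list members by their test statistic or, where a family partner or classical target, for their role. Predicted genes, chemosensory receptors and small RNAs were skipped. Same-numbered arrays did not deviate together (10 pairs, r from -0.246 to 0.271), so numbers do not pair arrays.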

Additional observations from a re-analysis of the deposited data

Results flagged for a closer look

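Among 27 measures tested in the 10 N100 arrays, 3 had an array far from the rest by Dixon's ratio, where chance gives about 1 in 20. Adm in N100 replicate 7 lay at 8.5 on the log2 scale, against 7.19 to 7.81 in the other arrays (gap over range 0.524). Ntrk2 in N100 replicate 10 lay at 5.68, against 6.03 to 6.43 (0.47). Peg3 in N100 replicate 10 lay at 8.55, against 9.3 to 9.77 (0.611). The ratio was taken on levels not adjusted for table order, and replicate 10 is among the 2 later N100 arrays. The part of table order in these gaps was not tested. H100, with 11 arrays, was not tested this way.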

How the results depend on the processing

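The 26 called genes of H100 against N100 became 0 in the earlier arrays alone, 0 in the later arrays alone, 11 with only the H100 and N100 arrays in the fit, 7 with the brain-like array included, 216 with array weights and 40 without the 40% dimmest genes. Leaving out each array in turn gave 12 to 89. Without replicate 6 (89 genes), array weights gave 402, and leaving out each further array 59 to 111, the lowest without H100 replicate 5. For H21 against N21 (32 genes), no term for table order gave 10, array weights 274, and leaving out each array 9 to 122. With the replicate number as a block, the counts were 18 for H100 against N100, 92 without replicate 6 and 16 for H21 against N21, and 1 H100 array correlated best with its own number. The difference between the pairs stayed at 0 called genes under all settings run. With no term for table order (21), 3 levels of it (22), a repeated quantile normalization (28), every probe set (20), a sex covariate (24) and eBayes with trend and robust settings (26), the count of H100 against N100 was within 1.5 times. Over 35 settings the 26 genes gave 910 values, of which 664 passed, 246 did not and 0 changed direction. Vegfc, Ntrk2 and Glul passed in 33 settings each, and Nup210 and Wfdc1 in 9. The score placed 10 H100 arrays above all N100 arrays under each choice of genes tried. Settings that left out replicates beside replicate 6, the fits within one part of the table without it, the score from 50 genes and the changes to the air pair were chosen after seeing the data. The cause of these changes in the counts was not tested.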

Other observations

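Some gene groups showed few or no calls in H100 against N100. None of 31 oxidative phosphorylation genes passed (median change -0.02), none of 19 antioxidant and NRF2 target genes (0.00), none of 12 heat shock genes (-0.04) and none of 15 chemokine and cytokine genes (-0.05). Of 13 cholesterol synthesis genes 11 were below 0, with a median of -0.10 and none called. Of 15 acute phase and STAT3 target genes 12 were above 0, with a median of 0.16 and none called. Of 16 genes of elastic matrix, collagens and proteases none passed with replicate 6, and without it Adamtsl2 was higher and Adam12 lower.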
